A study of Mus musculus with 2 samples.

Results

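The miR-148/152 family is made up of 3 miRNA genes in the mouse, Mir148a, Mir148b and Mir152. They were chosen by name: a row of the count tables was taken when its Ensembl gene ID mapped to one of these symbols in GENCODE M21 on GRCm38, the build also called mm10. All 3 had a row, among 1973 miRNA genes in the tables. The counts come from microRNA sequencing of heart tissue from B6NCrl mouse embryos at 11.5 days, male and female pooled, with no treatment or engineered allele named in the labels. The 2 libraries are biological replicates 1 and 2 of 1 group, so there is no contrast between conditions. The labels give 109 pooled embryos for replicate 1 and no number for replicate 2.

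A miRNA is cut from a hairpin precursor and guides Argonaute proteins to messenger RNAs that pair with its seed, bases 2 to 8 of the mature RNA. The mature RNAs named here come from the 3′ arm of their hairpins and are best known for repressing the maintenance DNA methyltransferase DNMT1 and, for miR-148a, genes of cholesterol and lipid handling in the liver, where it is abundant. In humans miR-152 and its host gene COPZ2 are often silenced together in tumours.

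The mature sequences are shown because the seed, in capitals, defines the family and the bases outside it are all that tells reads of its members apart. They are written 5′ to 3′ and come from RefSeq on GRCm38.p6, where all 3 members matched by symbol.
miR-148a-3p: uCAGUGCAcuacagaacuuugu
miR-148b-3p: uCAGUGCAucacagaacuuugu
miR-152-3p: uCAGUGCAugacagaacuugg
All 3 carry the seed CAGUGCA. Positions are counted from 1 at the 5′ end, with the base of the first-named RNA written first. From miR-148a-3p to miR-148b-3p there were 2 substitutions, C9U and U10C, over 22 bases. From miR-148a-3p to miR-152-3p there were 3 over the 21 bases compared, C9U, U10G and U20G. From miR-148b-3p to miR-152-3p there were 2, C10G and U20G. No difference fell in the seed; all lay at positions 9, 10 and 20.

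The 5′ arms are less alike, and the capitals again mark bases 2 to 8.
miR-148a-5p: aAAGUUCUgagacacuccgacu
miR-148b-5p: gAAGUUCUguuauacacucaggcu
miR-152-5p: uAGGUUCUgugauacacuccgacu
miR-148a-5p and miR-148b-5p share the seed AAGUUCU, whereas miR-152-5p has AGGUUCU. The deposited counts are per gene and do not separate the arms, so each value below covers both arms of a hairpin.

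The hairpins are shown whole, with the 3′ arm RNA in capitals, because the whole hairpin is the counted gene.
Mir148a: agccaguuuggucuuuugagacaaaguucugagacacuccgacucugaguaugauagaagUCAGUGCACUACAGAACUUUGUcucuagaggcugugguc
Mir148b: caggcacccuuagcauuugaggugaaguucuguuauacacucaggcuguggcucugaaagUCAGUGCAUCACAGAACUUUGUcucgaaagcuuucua
Mir152: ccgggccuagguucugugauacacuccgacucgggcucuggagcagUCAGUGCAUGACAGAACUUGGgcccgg
Mir148a (ENSMUSG00000065505.1) lies on the minus strand at chr6:51269812-51269910. Mir148b (ENSMUSG00000065560.1) lies on the plus strand at chr15:103285125-103285221, and Mir152 (ENSMUSG00000065515.1) on the plus strand at chr11:96850393-96850465. Their hairpins are 99, 97 and 73 bases long. The hairpin of Mir152 is the richest in G and C, at 61.6%, against 45.4% for Mir148b and 45.5% for Mir148a.

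Mir148b and Mir152 sit in paralogous host genes, and Mir148a has none. Mir148b lies on the same strand in intron 1 of Copz1, in all 4 annotated transcripts, 12215 bases from the start of the 9-exon coding transcript. Mir152 lies on the same strand in intron 1 of Copz2 in the 3 transcripts that span it, 517 bases from the start of the 9-exon coding transcript. Copz1 and Copz2 encode the zeta subunits of the COPI coat, which carries cargo from the Golgi back to the endoplasmic reticulum. Mir148a overlaps no annotated gene on its strand; the nearest coding gene, Nfe2l3, is 162760 bases away on the other strand. None of the 3 has a close counted neighbour. The nearest counted miRNA gene was 65234 bases from Mir148b, 213303 from Mir152 and 351722 from Mir148a, and none of those 3 neighbours passed 3 CPM (counts per 1000000 miRNA counts of a library) in either library. Host RNA was not measured in these libraries.

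**Figure D1:**
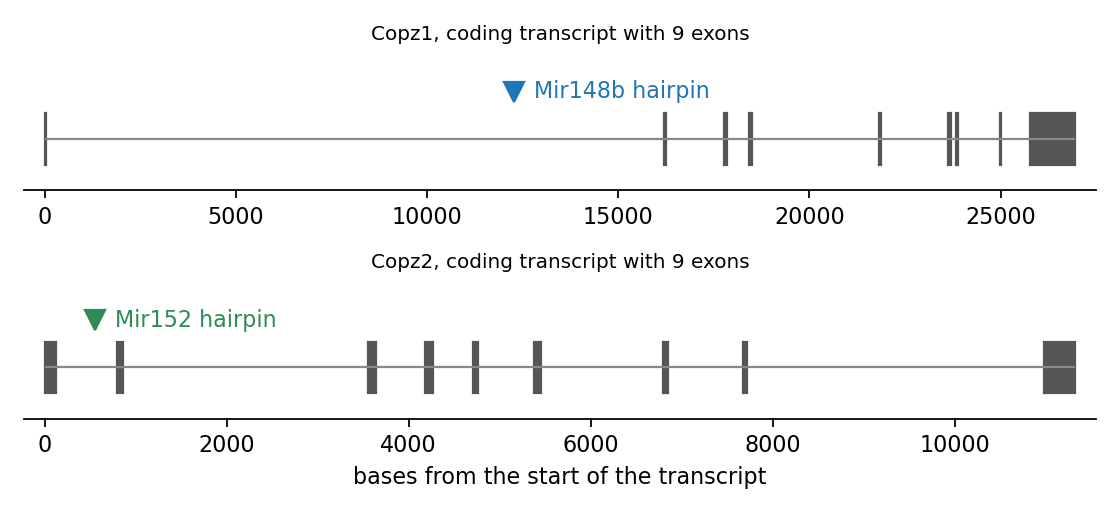
Position of the Mir148b and Mir152 hairpins (triangles) in the 9-exon coding transcripts of their host genes, with exons as boxes. The horizontal axis is the distance in bases from the transcript start, on a scale of its own in each panel. Both hairpins lie in intron 1, at 12215 bases in Copz1 and 517 bases in Copz2.

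The mature RNAs of the members, from either arm, differ enough in sequence to be told apart by exact reads of full length. The longest run of either miR-148a-3p or miR-148b-3p found in another of 1005 RefSeq hairpins was 12 bases, in the hairpin of the other, and for miR-152-3p it was 11 bases, in Mir878. For the 5′ arm RNAs it was 11 bases for Mir148a and Mir152, in the hairpin of the other, and 10 bases for Mir148b, in Mir1291. No other gene in that table has the same mature RNA, and among 141767 GENCODE transcripts each full RNA of either arm occurred in its own gene only, on either strand. No source used here says how many mismatches the authors' alignment allowed, and whether trimmed or mismatched reads crossed between members was not tested.

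Values are counts on the gene's own strand, and CPM of the own-strand miRNA counts of that library, which totalled 18467499 in replicate 1 and 2017294 in replicate 2. As a check of the labelled tissue, the heart muscle miRNAs Mir208a, Mir208b, Mir499, Mir1a-1, Mir133a-1 and Mir133a-2 summed to 58397 CPM in replicate 1 and 63145 CPM in replicate 2. Mir208b, Mir208a and Mir499, from introns of myosin genes, held nearly all of that sum. Mir208b had 46468 and 50211 CPM, Mir208a 10261 and 11000.4 CPM and Mir499 1663 and 1926 CPM in replicates 1 and 2. Mir1a-1 had 2.98 and 1.49 CPM and Mir133a-1 1.62 and 5.45 CPM, and Mir133a-2, at 1.25 and 0 CPM, was not detected. miR-1a and miR-133a are each made from more than one locus, and multimapping reads are on no gene, so their levels cannot be read from these counts. The smooth muscle miRNAs Mir143 and Mir145a summed to 93726 and 98626 CPM in replicates 1 and 2. The endothelial Mir126a had 79505 and 84700 CPM. Both values were above the heart muscle sum in each library. That sum lacks the multimapping reads of miR-1a and miR-133a, so no order of the cell types can be read from it. The 4 liver miRNAs listed summed to 546 and 303 CPM, with Mir194-1 and Mir194-2 uncertain because they carry the same mature RNA. The 7 epithelial ones summed to 2144 and 1488 CPM, and the 4 blood ones in the table to 1339 and 1254 CPM. The 5 neural ones in the table, copies of the miR-124 and miR-9 genes, summed to 1.46 CPM in replicate 1 and 0 in replicate 2. Copies of these genes carry the same mature RNA, so this low count says nothing about neural tissue.

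All 3 members were detected in both libraries, where detection means at least 1 CPM in each. Mir148a had 17586 counts in replicate 1 and 2059 in replicate 2, which is 952 and 1021 CPM (986 ± 48, SD, n = 2). It was the most abundant member in both libraries. Mir148b had 4736 and 585 counts, or 256 and 290.0 CPM (273 ± 24, SD, n = 2). Mir152 had 2738 and 306 counts, or 148 and 152 CPM (150.0 ± 2.4, SD, n = 2). No library of one member came near the range of another: the lowest value of Mir148a was above the highest of Mir148b, and the lowest of Mir148b above the highest of Mir152. In bulk tissue, fewer cells that make an RNA and less of it per cell cannot be told apart.

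**Figure D2:**
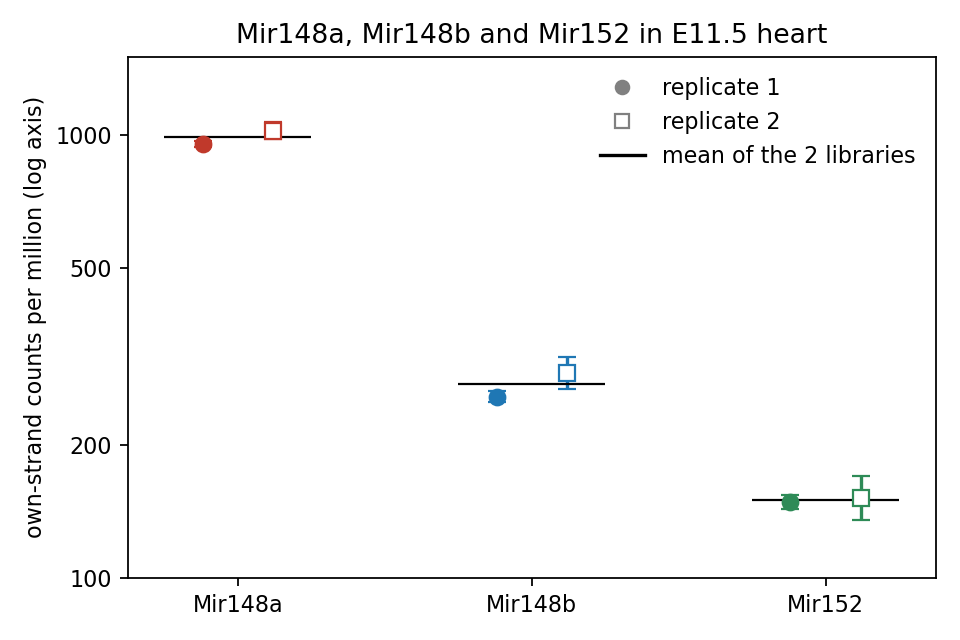
Own-strand CPM (log axis) of each member in replicate 1 (filled circles) and replicate 2 (open squares), with exact 95% Clopper-Pearson intervals and the mean as a line. Mir148a stands near 986 CPM, Mir148b near 273 CPM and Mir152 near 150.0 CPM, with no overlap between members.

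Exact 95% Clopper-Pearson intervals, which cover counting error only, show how depth limits these values. For Mir148a they ran from 938 to 966 CPM in replicate 1 and from 977 to 1066 CPM in replicate 2. For Mir148b they were 249 to 264 CPM and 267 to 314 CPM. For Mir152 they were 143 to 154 CPM and 135 to 170 CPM. The intervals of the 2 libraries overlapped for Mir152 and not for the other two. For a gene at 0, a limit of 3 counts was taken instead of an exact interval. That limit was 0.162 CPM in replicate 1 and 1.49 CPM in replicate 2, far below any member.

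The ratios between members were larger than the spread between libraries in all 3 pairs. This means that both libraries went the same way, both exact intervals left out equality, and the mean log2 ratio exceeded its SD. Mir148a over Mir148b was 3.71 in replicate 1 (interval 3.60 to 3.84) and 3.52 in replicate 2 (3.21 to 3.86), a mean log2 ratio of 1.85 ± 0.05 (SD, n = 2). Mir148a over Mir152 was 6.42 (6.17 to 6.69) and 6.73 (5.96 to 7.61), a mean log2 ratio of 2.72 ± 0.05. Mir152 over Mir148b was 0.578 (0.551 to 0.606) and 0.523 (0.454 to 0.602), a mean log2 ratio of -0.86 ± 0.10. The 3′ arm RNAs are 21 or 22 bases long and the 5′ arm RNAs 22 or 24, and the ratios, taken over whole hairpins, are not scaled by length. They compare counts: how evenly ligation and sequencing read these 3 RNAs was not tested.

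Taken as one pool, the members made up 0.136% of own-strand counts in replicate 1 (interval 0.134 to 0.137%) and 0.146% in replicate 2 (0.141 to 0.152%). Mir148a supplied most of that pool, with 70.2% in replicate 1 (69.6 to 70.7%) and 69.8% in replicate 2 (68.1 to 71.5%). Mir148b supplied 18.9% and 19.8%, and Mir152 supplied 10.9% and 10.4%. The make-up of the pool was thus alike in both libraries, with overlapping intervals for every member.

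Among all genes in the tables, ranked by mean CPM, Mir148a stood at 88, Mir148b at 139 and Mir152 at 177. Of the 419 detected genes, 20.8% lay above Mir148a, 32.9% above Mir148b and 42.0% above Mir152. The median detected gene had 80.5 CPM, so Mir148a stood 12.3-fold above it, Mir148b 3.39-fold and Mir152 1.86-fold. The most abundant gene had 111844 CPM. Next to Mir148a in rank were Mir181a-1 at 992 ± 52 CPM and Mir154 at 969 ± 19 CPM, both within its SD. Mir148b stood between Mir500 at 276 ± 5 CPM and Mirlet7b at 272 ± 5 CPM. Mir152 stood between Mir92b at 151 ± 33 CPM and Mir410 at 141 ± 12 CPM (SD, n = 2 throughout). The ranks of adjacent genes are therefore not separated by these 2 libraries. Multimapping reads are on no gene, so genes that share a mature RNA can rank too low here. The members share theirs with no other gene, so their standing among all genes can look too high.

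**Figure D3:**
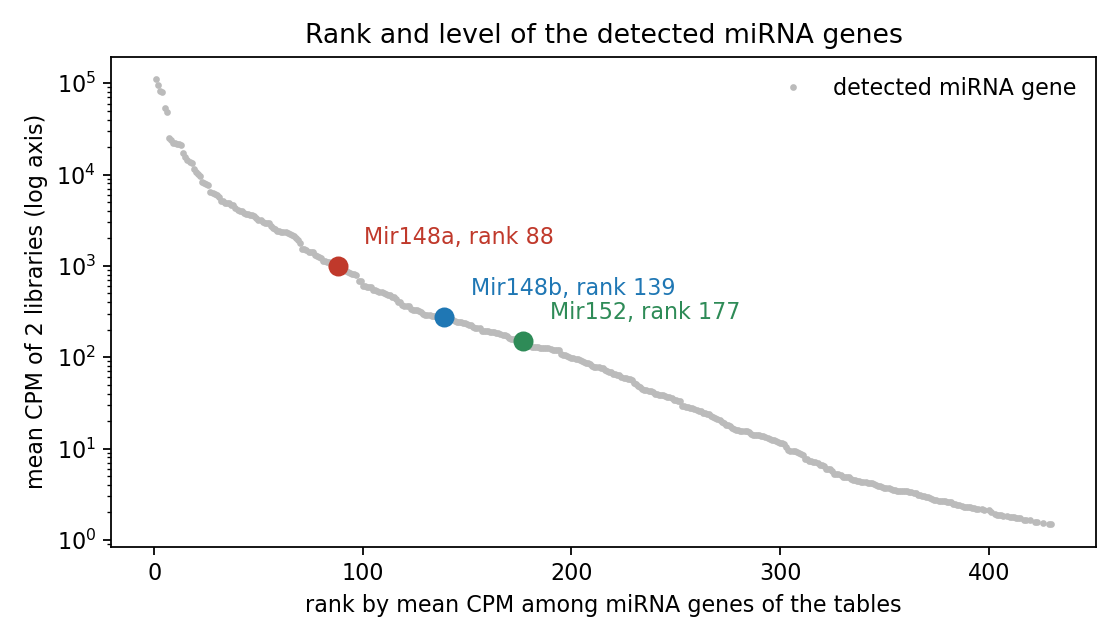
Mean CPM (log axis) of the 419 detected miRNA genes against their rank, with the members marked. Mir148a, Mir148b and Mir152 stand at ranks 88, 139 and 177, all above the median detected gene at 80.5 CPM. Genes that share a mature RNA can stand too low, because multimapping reads are on no gene.

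Genes with the most similar values were named by the smallest distance in log2(CPM + 1) over the 2 libraries, 3 for each member. For Mir148a these were Mir434 at 984 and 1020 CPM in replicates 1 and 2 (distance 0.0476), Mir154 (0.0552) and Mir501 (0.0995). For Mir148b they were Mir500 (distance 0.102), Mirlet7b (0.152) and Mir329 (0.156). For Mir152 they were the erythroid Mir144 at 160 and 154 CPM (distance 0.111), Mir770 (0.119) and Mir679 (0.122). With 2 libraries this likeness is one of level only. No member was among the nearest genes of another.

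The run CAGUGCA was searched in the first 10 bases of 1679 mature RNAs in RefSeq, as the RNA is written. It was found in 11, at bases 2 to 8 in the 3 family members and nowhere else at that place. In 7 others it stands 1 base earlier, at bases 1 to 7, which gives them another seed, AGUGCAA. Those with counts are shown beside miR-148a-3p, with the run in capitals.
miR-148a-3p: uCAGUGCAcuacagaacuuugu
miR-130a-3p: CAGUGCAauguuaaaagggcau
miR-130b-3p: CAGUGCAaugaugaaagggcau
miR-301a-3p: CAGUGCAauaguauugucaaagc
The base after the run is A in these 7 RNAs, and C or U in the family. Mir130a had 21566 CPM in replicate 1 against 23045 CPM in replicate 2, and Mir130b at 4465 and 4191 CPM. Mir301, the gene of miR-301a, stood at 813 and 961 CPM. Mir130c, Mir6341 and Mir6389 were listed at 0 counts in both libraries, and Mir721 is not in the count tables. In Mir449c the run lies at bases 4 to 10, and it had 3 counts in replicate 1 and 0 in replicate 2. Together the members had 1357 and 1462 CPM, against 26844 and 28197 CPM for the genes with the run at bases 1 to 7. Mir301b, at 59.8 and 60.0 CPM, is not in this sum. The reference lists 1 mature RNA of Mir301b, without the run in its first 10 bases. The search could therefore not judge the other arm of its hairpin. Mir130a, Mir130b, Mir301 and Mir301b together had 26904 and 28257 CPM in replicates 1 and 2. Without Mir301b, the ratio of the members to the genes with the run at bases 1 to 7 was 0.0506 in replicate 1. In replicate 2 it was 0.0519, and the mean log2 ratio was -4.29 ± 0.03 (SD, n = 2). Whether these RNAs act on shared messages was not tested.

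Other small families served to place the spread among the members. The family's log2 range from lowest to highest was 2.68 in replicate 1 and 2.75 in replicate 2. It was 4.80 and 4.70 for Mir208a, Mir208b and Mir499 in the introns of myosin genes, and 8.49 and 8.59 for Mir130a, Mir130b, Mir301 and Mir301b. Mir103-1, Mir103-2 and Mir107, in introns of the pantothenate kinase genes, spanned 9.42 and 9.61, and Mir26a-1, Mir26a-2 and Mir26b, in introns of Ctdsp phosphatase genes, 11.3 in both. The first 2 genes of each of these last families carry an identical mature RNA, whose multimapping reads are on no gene, so their ranges are uncertain. The leading gene took 70.2% and 69.8% of the family's counts for Mir148a, against 79.6% and 79.5% for Mir208b and 80.2% and 81.6% for Mir130a. The exact intervals of Mir148a, which reached 71.5% at most, stayed below those of Mir208b, which began at 79.3%, and of Mir130a, which began at 80.0%.

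**Figure D4:**
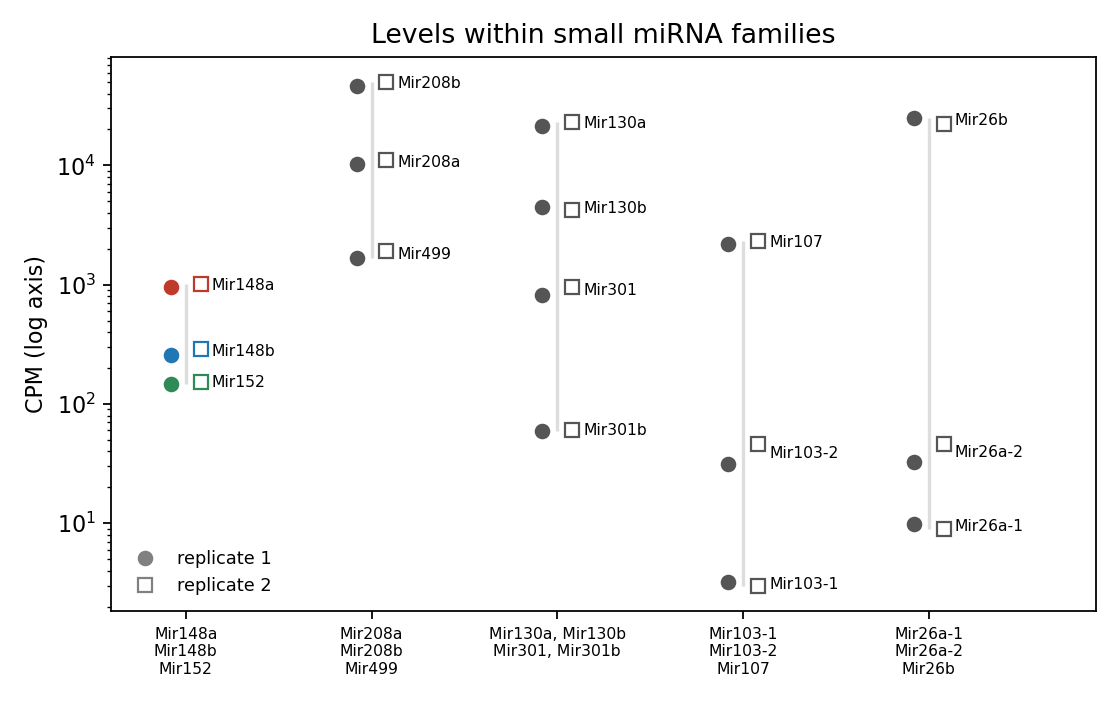
CPM (log axis) of each gene in 5 small miRNA families, in replicate 1 (filled circles) and replicate 2 (open squares); the grey line spans a family. The family of Mir148a has the narrowest span of the 5, a log2 range of 2.68 in replicate 1 and 2.75 in replicate 2; the low values of Mir103-1, Mir103-2, Mir26a-1 and Mir26a-2 are uncertain because their mature RNAs are shared.

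Replicate 1 was then set against replicate 2 for each gene by an exact binomial test, two-sided and conditioned on the library totals, with Benjamini-Hochberg adjustment over the 419 detected genes. A gene was called at an adjusted p of 0.05 or less with a fold of at least 2 on CPM + 1. The test compares 2 libraries, not conditions, and allows for counting error alone. None of the 3 members was called, where 2.39% of all tested genes were (10 of 419). By the adjusted p alone, Mir148a and Mir148b were lower in replicate 1, where 14.3% of tested genes were lower and 15.0% higher. Their differences were small. Mir148a in replicate 1 over replicate 2 was 0.933 (interval 0.891 to 0.977; exact binomial, adjusted p = 0.013), and Mir148b was 0.884 (0.811 to 0.965; exact binomial, adjusted p = 0.0219). Mir152 was 0.977 (0.868 to 1.10; exact binomial, adjusted p = 0.871). On the log2 scale these were -0.10, -0.18 and -0.03, beside a median of 0.01 over all tested genes and a median size of 0.14. edgeR's exact test gave an adjusted p of 1 for each member. Its dispersion (a biological coefficient of variation of 18.1%) was estimated from the same 2 libraries taken as replicates, so differences of this size could not pass and this p says nothing about stability.

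Of the 90 detected genes with a mean CPM from that of Mir152 to that of Mir148a, the members included, 17 were lower and 18 higher in replicate 1 by the adjusted p, and their median size was 0.10 on the log2 scale. Liver is rich in miR-148a, so the liver miRNA Mir122 was read beside it. Mir122 had 395 CPM in replicate 1 against 160 CPM in replicate 2, a log2 ratio of 1.30 (exact binomial, adjusted p = 2.28e-73), whereas Mir148a was lower in replicate 1. Of the 4 liver miRNAs, 2 were higher and 0 lower in replicate 1 by the adjusted p, where 15.0% of all tested genes were higher and 14.3% lower. Mir194-1 and Mir194-2, the 2 that did not pass, carry the same mature RNA, so their levels are uncertain. Other marker lists moved too. All 7 epithelial miRNAs were higher in replicate 1, with a median log2 ratio of 0.56. Of the 4 detected blood ones 2 were higher and 0 lower, with a median of 0.14. The 2 smooth muscle ones were lower, with a median of -0.12, as was the endothelial Mir126a at -0.09. Of the 5 detected heart muscle ones 0 were higher and 4 lower, with a median of -0.11. The 4 were Mir208a, Mir208b, Mir499 and Mir133a-1. Mir133a-1 had 30 and 11 counts in replicates 1 and 2. Its level, like that of Mir1a-1, cannot be read from these counts. The part of these lists in the level of Mir148a was not tested.

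**Figure D5:**
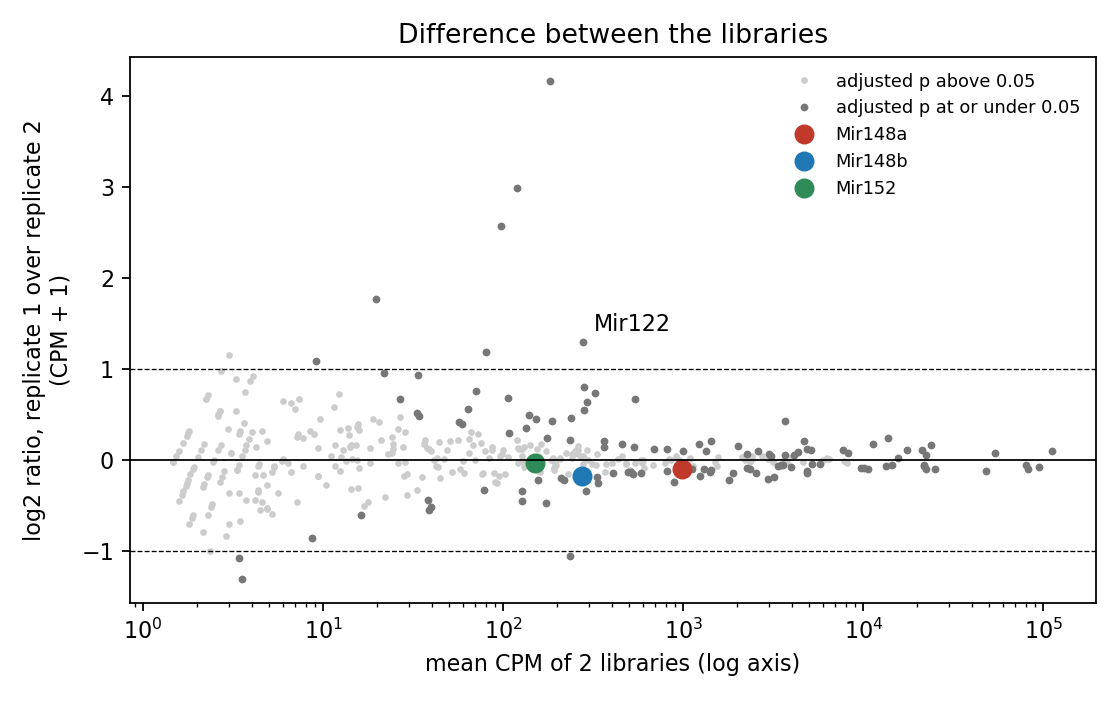
Log2 ratio of replicate 1 over replicate 2 (CPM + 1) against mean CPM (log axis) for the 419 detected genes; dark points have an adjusted p of 0.05 or less and dashed lines mark 2-fold. The 3 members lie between -0.18 and -0.03, while Mir122 lies at 1.30.

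Other miRNAs known for acting on DNA methyltransferase messages were read from a list of 8 genes. The list was Mir29a, Mir29b-1, Mir29b-2, Mir29c, Mir126a, Mir143, Mir185 and Mir342, and 7 were detected. Mir29b-2 was the gene not detected. Mir29b-1 and Mir29b-2 are named as copies of the same miRNA, and multimapping reads are on no gene, so their levels are uncertain. By the adjusted p, 4 of the 7 were lower in replicate 1, 0 were higher and 3 did not pass, where 14.3% of all tested genes were lower and 15.0% higher, and none of the 7 reached 2-fold. Their median log2 ratio was -0.09, beside 0.01 over all tested genes. The 4 that passed were Mir143 at -0.07, Mir126a at -0.09, Mir29a at -0.125 and Mir29c at -0.46. Because the test allows for counting error alone, small differences pass in genes with many counts, such as Mir143 and Mir126a. Mir29c, with 2668 and 403 counts in replicates 1 and 2, differed by more. Most abundant in the list was the smooth muscle Mir143, at 92563 and 97313 CPM in replicates 1 and 2. Next came the endothelial Mir126a at 79505 and 84700 CPM, and Mir342 at 2147 and 2095 CPM. Mir148a thus stood below Mir342 in both libraries. It stood above Mir29a, at 490 and 534 CPM, and above Mir185 and Mir29c.

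Reads on the strand opposite the members were almost absent. Mir148a and Mir148b had 0 in both libraries, and Mir152 had 3 in replicate 1 and 0 in replicate 2. Including that strand changed no ratio between members by as much as 0.01 on the log2 scale.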

How the data were processed

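MicroRNA sequencing of 2 heart libraries was analysed. The deposited files hold the authors' raw counts of reads for each miRNA gene on mm10 with annotation M4, per the file headers in their notes. No source used here names the aligner or counter. The tables have 3 count columns without names, taken from their layout and sums as both strands, own strand and opposite strand. The 4 summary rows stayed out of totals. They held 38.4% unmapped and 20.8% multimapping reads in replicate 1, against 27.5% and 24.1% in replicate 2. Of 1973 gene IDs, 1894 matched GENCODE M21; members and lists were chosen with earlier results of these data known.

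CPM are own-strand counts per 1000000 own-strand miRNA counts of the library. Depth differed 9.15-fold. Intervals are exact Clopper-Pearson, and cover counting error alone, as PCR copies were not marked by molecular identifiers. The smallest two-sided sign-flip p over 2 libraries is 0.5, so no p across replicates is given. The exact binomial test used scipy 1.17.1 and was tested on simulated Poisson counts. These hold counting error alone, so they do not show how the test behaves where libraries differ by more. The alternative scalings and test came from edgeR 4.0.16 and DESeq2 1.42.0. Named were the members, the 3 genes nearest each in level, every gene with the seed run, and up to 3 examples per list. The labels give each replicate its own tissue sample and do not mention litters. Alternatives were unstranded counts, other totals and scalings, other detection limits, folds and pseudocounts, each replicate left out, and edgeR's exact test.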

Additional observations from a re-analysis of the deposited data

How the results depend on the processing

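With unstranded counts every ratio between members kept its direction and stayed beyond the spread. In either replicate alone each kept its direction and its exact interval left out equality. CPM depend on what they are divided by. With all reads as the total, unmapped and multimapping ones included, Mir148a had 363, Mir148b 101 and Mir152 55.1 CPM, and the 3 together 0.0519%. Without the 10 most abundant genes in the total, they had 2270.3, 629 and 345 CPM, together 0.324%. With unstranded counts Mir152 had 143 CPM, and the ranks of Mir148a, Mir148b and Mir152 were 96, 149 and 186. TMM and DESeq2 scaling moved no level by as much as its SD.

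Between the libraries, 6 genes were called with detection at 10 CPM, 4 by edgeR's exact test, 21 with a fold of 1.5 and 123 with no fold minimum. With no fold minimum Mir148a passed at a log2 ratio of -0.10 and Mir148b at -0.18. Their adjusted p ranged over the alternatives from 0.00956 to 1 and from 0.0161 to 1, the highest by edgeR, whose dispersion comes from these same libraries. Depth in replicate 2, with 306 counts on Mir152, limits that gene's library ratio to 0.868 to 1.10. No paired analysis was possible because there is 1 group.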
